A study of Mus musculus with 9 samples.

Results

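The genes described here are the nuclear-encoded subunits of oxidative phosphorylation, measured in the livers of mice given thioacetamide (TAA), a liver toxin that causes fibrosis. Genes were chosen by symbol (names beginning Ndufa, Ndufb, Ndufc, Ndufs or Ndufv with a number, Uqcr, Cox4 to Cox8, Sdha to Sdhd, or Atp5) and by a mean of at least 100 estimated reads over the 9 libraries. The rule used symbols and mean counts, not differences between groups. It was set with earlier results of these data known. Of 24532 genes in the table, 84 had such a symbol and 78 reached that mean. They comprise 35 subunits of complex I, 4 of complex II, 8 of complex III, 12 of complex IV, 15 of complex V (ATP synthase), and 4 proteins that share a symbol stem without being subunits. The pattern misses a few true subunits such as Ndufab1 and Cyc1, which are given with the related genes.

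All samples were whole liver of wild-type C57BL/6 mice that had received intraperitoneal TAA at a rising dose, 2 injections a week, over 10 weeks. Control mice received normal saline (replicates 12, 13 and 14, called TAA). Treated mice were given rhCYGB, recombinant human cytoglobin, which is an oxygen-binding globin, at 2 mg/kg into the tail vein, also 2 times a week, during the last 2 weeks (replicates 17, 18 and 19) or the last 5 weeks (replicates 23, 27 and 28). All rhCYGB mice were killed 2 days after their last dose. Healthy liver was not analysed here, so every difference is between livers exposed to TAA. Whether every replicate number is its own mouse is not given in the labels, and p-values then cover only the spread among these samples, which may be technical. In whole liver, fewer cells of a type and less RNA per cell cannot be told apart.

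As background, the respiratory chain passes electrons from NADH (complex I) and succinate (complex II) through complex III to oxygen at complex IV. The proton gradient built on the way drives ATP synthase. Most subunits are encoded in the nucleus, translated in the cytosol and imported, while a small core set is encoded by mitochondrial DNA and is not analysed here. Hepatocytes are rich in mitochondria and use this ATP for urea synthesis, gluconeogenesis and lipid handling. Transcription of the nuclear subunits is known to be driven by factors such as NRF1, GABP and ERR alpha together with the coactivator PGC-1 alpha.

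As a description, the bases upstream of the members' start sites were searched for the motifs of those factors. A RefSeq promoter entry (build GRCm38.p6) was matched for 66 of 78 members, and the 250 bases before each start were read on both strands. The core of the NRF1 palindrome, CGCATGCG, lay upstream of 7 members, 10.6% of those matched, against 3.26% of 11652 tested genes. The relaxed form CGCNNGCG, which contains that core, lay upstream of 22 members (33.3%, against 25.05% of tested genes). The ETS core CCGGAAG, which GABP binds, was found in 12 (18.2%, against 14.4%), and the YY1 motif AAGATGGC in 2 (3.03%, against 2.27%). TCAAGGTCA, the ERR alpha motif, was found in 1 (1.52%, against 0.326%). GGGCGG, the GC box, was found in 24 (36.4%, against 60.3%), and CCAAT in 29 (43.9%, against 40.4%). A match describes the letters and is not evidence of binding.

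Of the 7 members with the NRF1 core, 4 are shown as examples of that motif in place. Each sequence is the 150 bases ending just before the start site, 5′ to 3′ on the gene's strand, with the letters of the NRF1, ETS, YY1 and ERR alpha motifs in capitals and those of the GC box and CCAAT left in lower case. In Cox6a1 the exact core lies farther upstream, and the capitals mark a relaxed NRF1 match and an ETS core read on the opposite strand.
Atp5k, chr5:108434400-108434549, minus strand: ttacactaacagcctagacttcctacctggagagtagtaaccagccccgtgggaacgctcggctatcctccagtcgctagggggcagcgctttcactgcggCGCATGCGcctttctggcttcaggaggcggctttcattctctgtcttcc
Atp5g2, chr15:102671048-102671197, minus strand: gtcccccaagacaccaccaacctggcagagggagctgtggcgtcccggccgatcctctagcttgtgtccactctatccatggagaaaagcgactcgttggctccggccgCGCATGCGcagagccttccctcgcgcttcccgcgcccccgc
Cox6a1, chr5:115348959-115349108, minus strand: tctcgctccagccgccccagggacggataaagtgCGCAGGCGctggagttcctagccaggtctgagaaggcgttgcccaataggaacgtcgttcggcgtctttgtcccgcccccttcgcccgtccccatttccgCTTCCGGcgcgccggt
Ndufa11, chr17:56717612-56717761, plus strand: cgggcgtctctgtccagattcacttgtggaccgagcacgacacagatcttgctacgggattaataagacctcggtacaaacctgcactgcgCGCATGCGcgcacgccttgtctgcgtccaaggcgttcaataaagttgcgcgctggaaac

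Members were split by these motifs for their changes. Against TAA at 2 weeks, the median log2 change was 0.69 for the 7 members with the NRF1 core and 0.60 for the 59 without it. It was 0.63 for the 12 with the ETS core and 0.61 for the 54 without. At 5 weeks the corresponding medians were 0.19 and 0.23 for the NRF1 core, and 0.20 and 0.22 for the ETS core. With the trend over transcript length removed, as described below, the 2-week medians were 0.29 and 0.24 for the NRF1 core. For the ETS core they were 0.2352 and 0.2445. The 5-week medians were then 0.16 and 0.21, and 0.18 and 0.21. These values were not tested.

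Libraries held 55655727 to 87289945 estimated reads, the deepest being library 18, and 14731 genes passed the filter on low counts, all 78 members among them. The members took 1.26% to 1.68% of all reads. On the first principal component, which held 32.3% of the variance, libraries 17 and 18 (2 weeks, -39.4 and -44.1) and library 23 (5 weeks, 78.8) stood apart. Levels of a gene are given as CPM, counts scaled by depth and edgeR's TMM factors, which are not comparable between genes. Levels between genes are given per length, as the authors' FPKM. Log2 changes carry an approximate standard error (SE) and an adjusted p from edgeR's quasi-likelihood test, and a gene is called at an adjusted p under 0.05.

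Expression per length was high and differed between complexes. Over the members of each complex, the median FPKM (mean of 9 libraries) was 134 for complex I, 160 for complex II, 261 for complex III, 396 for complex IV and 350 for complex V. Atp5b, the catalytic beta subunit of ATP synthase, was highest at 914 FPKM. Ndufa4, named for complex I but now placed in complex IV, followed at 826 FPKM. Within complex I the highest was Ndufa6, an accessory subunit, at 286 FPKM, and the lowest Ndufs5 at 6.82 FPKM. The highest and lowest FPKM were 223 (Sdhb) and 115 (Sdha) in complex II, 363 (Uqcrh) and 136 (Uqcrc2) in complex III, and 914 (Atp5b) and 184 (Atp5g2) in complex V. Ndufs5 lay far below the other subunits of complex I, as did Cox6b2 (4.29 FPKM) in complex IV. Members with near-identical processed copies can lose reads in counting, and the part of this in the low value of Ndufs5 was not tested.

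**Figure D1:**
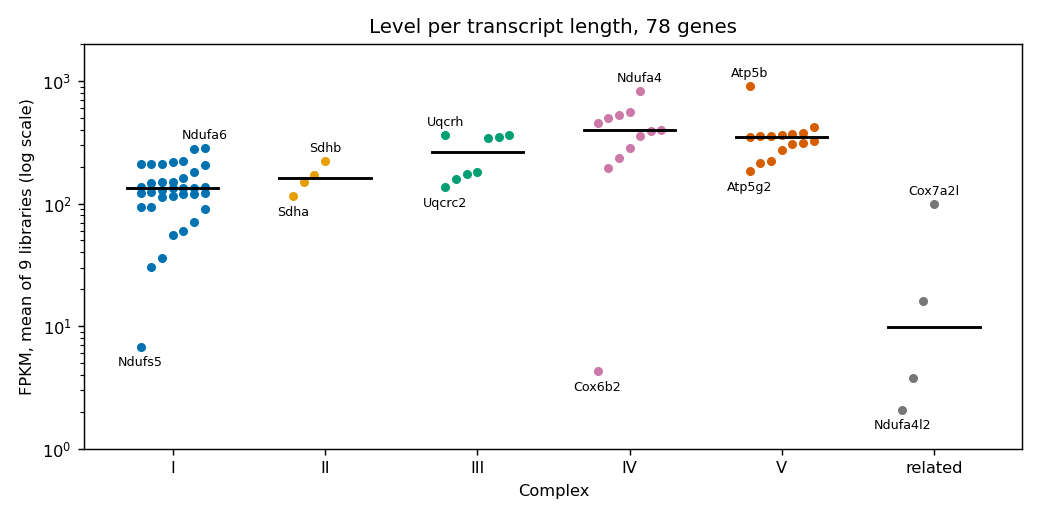
Level of each of the 78 genes per transcript length (FPKM, mean of 9 libraries, log scale) by complex, with black bars at the medians (134, 160, 261, 396 and 350 for complexes I to V). The lowest and highest genes are named, and Ndufs5 (6.82) and Cox6b2 (4.29) lie far below the other subunits of complexes I and IV.

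The isoform pairs of complex IV showed the liver forms. Cox4i1 was at 558 FPKM and Cox4i2, the lung and hypoxia form, at 0.278. Cox6a1 was at 531 FPKM and Cox6a2, the muscle form, at 0.234. Cox6b1 stood at 497 FPKM against 4.29 for the testis form Cox6b2, and Cox8a at 450 FPKM against 0.0407 for the muscle form Cox8b. Cox7a2 was at 237 FPKM and the muscle form Cox7a1 at 3.81. Of the 6 genes left out by the read threshold, Cox7a1 was the nearest with a mean of 92.1 reads, Cox4i2 and Cox6a2 had 13.3 and 9.89, Cox8b had 1.00, and Cox7b2 and Cox8c had no reads in the 9 libraries. The nearest inside were Ndufa4l2 (129 reads), Cox6b2 (152) and Ndufs5 (224).

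After 2 weeks of rhCYGB, 5 members were called higher than in TAA, none lower, and 73 were not called. In that comparison 3.31% of all tested genes were called and 1.98% called higher. The called members were Ndufs7, Ndufb8 and Ndufa6 of complex I, Sdhc of complex II and Cox4i1 of complex IV. The median log2 change of the 78 members was 0.61, against -0.03 for all tested genes, and 77 of 78 lay above 0. For 71 members every 2-week library lay above every TAA library, where 17.3% of all tested genes did so. Among other genes of like transcript length, 32.29% did so under 500 bases, 42.11% from 500 to 750 and 38.42% from 750 to 1000. The shares were 32.03% from 1000 to 1500 bases and 20.29% from 1500 to 3000. In these ranges 12 of 12, 26 of 28, 12 of 13, 10 of 11 and 11 of 14 members did so. Of those other genes, 79.69%, 86.97%, 79.31%, 71.14% and 54.1% lay above 0, in the same order. At an unadjusted p under 0.05 the count of members was 70, all higher, against 12.9% of all tested genes higher at that p. The edgeR count of 5 moved with single libraries, as did the 488 genes called in all. It was 0 without library 12, 13, 14, 17 or 18, where 1 to 31 genes were called in all, and 1 without 28 (169 in all). Without library 23 it was 26 (1095 in all), and without 27 it was 38 (888 in all). DESeq2 called 49 members higher, with 6.71% of all genes called higher by that test.

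Ndufs7 carries an iron-sulfur cluster in the core of complex I (gene ID 75406, mm10 chromosome 10, 80249452 to 80256792). It stood at 40.4, 39.6 and 44.7 CPM in TAA, at 69.1, 78.7 and 68.1 after 2 weeks, and at 55.3, 53.8 and 46.1 after 5 weeks. The groups did not overlap, with the 2-week libraries highest. The log2 change at 2 weeks was 0.79 (SE 0.12, edgeR adjusted p 0.024, n = 3 a group).

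Ndufb8, an accessory subunit of the membrane arm, was at 116, 121 and 128 CPM in TAA and at 193, 172 and 178 after 2 weeks. All 2-week libraries were above all TAA libraries, and the log2 change was 0.57 (SE 0.13, edgeR adjusted p 0.0421). After 5 weeks it was at 124, 163 and 147 CPM, overlapping TAA.

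Ndufa6, an accessory subunit of the LYR family, was at 123, 108 and 139 CPM in TAA, at 230, 211 and 198 after 2 weeks, and at 127, 202 and 155 after 5 weeks. The 2-week libraries lay apart from TAA, with a log2 change of 0.79 (SE 0.18, edgeR adjusted p 0.0449). Within the 5-week group, library 27 reached the 2-week range and library 23 stayed in the TAA range.

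Sdhc, a membrane anchor of succinate dehydrogenase, was at 160, 145 and 155 CPM in TAA, at 220, 206 and 216 after 2 weeks, and at 163, 198 and 177 after 5 weeks. Its libraries agreed closely within groups, and the log2 change at 2 weeks was 0.48 (SE 0.11, edgeR adjusted p 0.0485). Cox4i1, the regulatory subunit that binds ATP in cytochrome c oxidase, was at 333, 312 and 365 CPM in TAA, at 587, 573 and 469 after 2 weeks, and at 341, 462 and 393 after 5 weeks. The 2-week libraries were again above the other groups, and the log2 change was 0.69 (SE 0.15, edgeR adjusted p 0.0392).

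**Figure D2:**
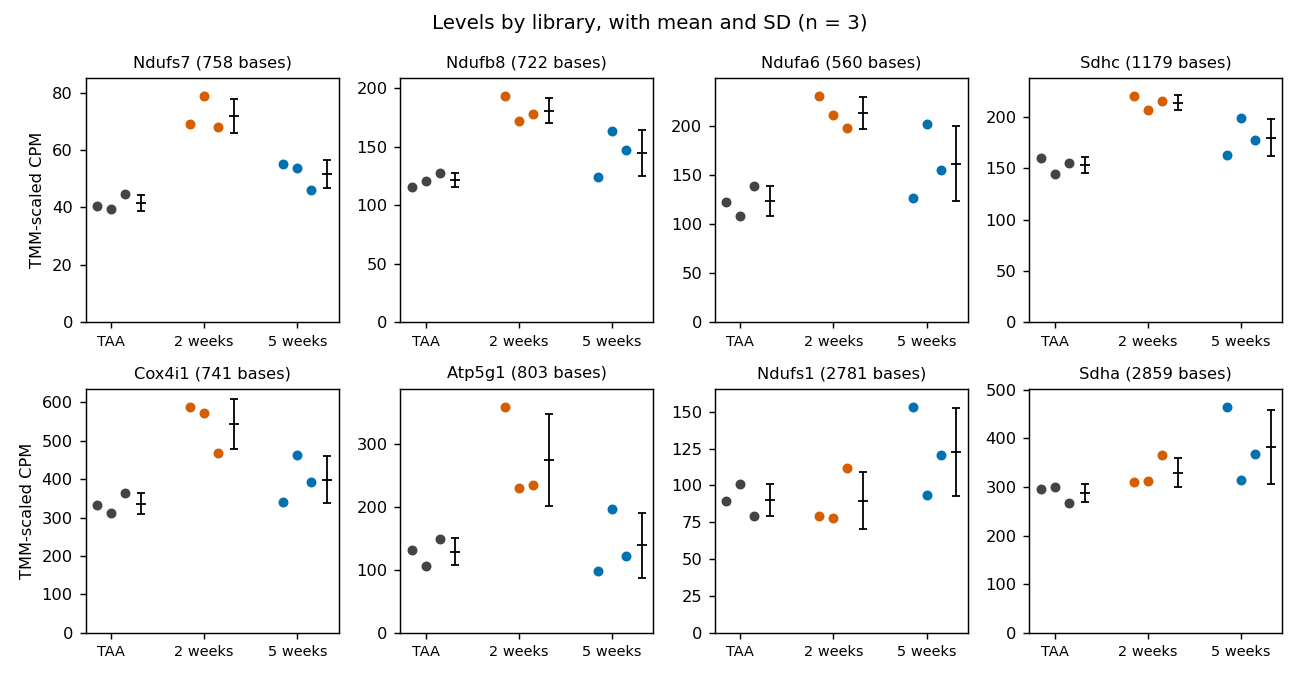
TMM-scaled CPM in each library (points) with the mean and SD of each group of 3 for the 5 called genes, for Atp5g1 and for the long transcripts Ndufs1 and Sdha. In the called genes every 2-week library lies above every TAA library, while for Ndufs1 and Sdha the highest value is that of library 23 after 5 weeks (153 and 464 CPM).

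The largest change at 2 weeks was that of Atp5g1, which encodes the c subunit of the ATP synthase rotor ring. It was at 131, 107 and 150 CPM in TAA, at 359, 230 and 236 after 2 weeks, and at 98.8, 196 and 121 after 5 weeks. The log2 change was 1.09 (SE 0.27), a 2.13-fold difference that missed the threshold (edgeR adjusted p 0.0571). Atp5e, the epsilon subunit of the F1 stalk, followed at 0.92 (SE 0.25, edgeR adjusted p 0.0738), and Ndufa3, an accessory subunit, at 0.88 (SE 0.25, edgeR adjusted p 0.0769). The c subunit has 3 genes with the same mature protein. Atp5g3 was at 239, 234 and 256 CPM in TAA and at 299, 287 and 300 after 2 weeks, and Atp5g2 at 113, 91.2 and 118 and then 161, 161 and 117. Only Atp5g2 overlapped between these groups.

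The core and catalytic subunits that were not called ranged widely at 2 weeks. Ndufv1, the NADH-binding flavoprotein, was at 165, 153 and 185 CPM in TAA and at 275, 275 and 223 after 2 weeks, just beyond the threshold (log2 change 0.62, SE 0.14, edgeR adjusted p 0.0502). Ndufs1, the largest iron-sulfur subunit, was at 89.6, 100.8 and 79.2 CPM and then 78.9, 78.01 and 112 (log2 change -0.0037, SE 0.21). Sdha, the flavoprotein of complex II, was at 297, 300 and 267 CPM and then 311, 313 and 365 (log2 change 0.19, SE 0.15). Its partner Sdhb, which holds the iron-sulfur clusters, was at 192, 176 and 216 CPM and then 305, 292 and 267 (log2 change 0.56, SE 0.17). The alpha subunit of F1, Atp5a1, was at 767, 830 and 752 CPM and then 862, 821 and 963, so that the groups overlapped (log2 change 0.17, SE 0.11). Atp5b was at 1480, 1478 and 1627 CPM and then 2138, 1947 and 1843, apart but not called (log2 change 0.37, SE 0.13, edgeR adjusted p 0.126).

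In complex III, none of 8 members was called by edgeR, while 7 had an unadjusted p under 0.05 and all 8 were apart from TAA. Uqcrq, a small subunit at the ubiquinone side, had the lowest p there (log2 change 0.72, SE 0.18, edgeR adjusted p 0.0574). Uqcrc1, a core protein, was at 256, 237 and 276 CPM in TAA and at 406, 407 and 319 after 2 weeks (log2 change 0.56, SE 0.15). Ndufa4 was at 319, 276 and 365 CPM and then 621, 533 and 475 (log2 change 0.76, SE 0.20, edgeR adjusted p 0.0617). The median log2 change was 0.67 in complex I, 0.37 in complex II, 0.56 in complex III, 0.65 in complex IV and 0.60 in complex V. Within complex I it was 0.59 for the 7 core and 0.69 for the 28 accessory subunits.

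The 4 proteins related by symbol had a median of 0.22. Atp5sl, an assembly factor of complex I despite its symbol, was at 25.7, 20.2 and 23.8 CPM in TAA, at 34.6, 36.3 and 30.8 after 2 weeks and at 31.6, 37.5 and 32.1 after 5 weeks. It was apart from TAA at both times, with log2 changes of 0.55 (edgeR adjusted p 0.0556) and 0.54 (edgeR adjusted p 0.0777). Cox7a2l had a log2 change of 0.34 at 2 weeks (SE 0.13). Ndufa4l2, a hypoxia-induced paralog of Ndufa4, lay between 1.2 and 2.7 CPM in the 9 libraries, and Atp5s between 5.0 and 6.7 CPM. Their groups overlapped at both times.

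After 5 weeks of rhCYGB no member was called against TAA by edgeR, where 1.29% of all tested genes were called and 0.686% called higher. At an unadjusted p under 0.05 there were 11 members, all higher, against 9.59% of all tested genes higher at that p. DESeq2 called 5 members higher, with 4.48% of all genes called higher by that test, and limma on log2(FPKM + 1) called 0 members and 6.8% of all genes. On the TMM scale 77 of 78 members lay above 0, with a median log2 change of 0.23 against 0.01 for all genes. On the FPKM scale that median was -0.0094, where the median of all genes was -0.13, so that the members' median was above that of all genes on both scales. It was 0.04 on the TMM scale without library 27 and 0.13 without library 13. For 13 members (16.7%) every 5-week library lay above every TAA library, against 11.6% of all tested genes. Among them were Ndufa9, Ndufb3, Ndufs5, Ndufs7, Sdha, Sdhc, Sdhd, Uqcrc2, Uqcrfs1, Atp5a1, Atp5g3 and Atp5sl.

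Beside Atp5sl, the lowest p at 5 weeks in complexes I, III and II belonged to Ndufa9, Uqcrfs1 and Sdhd. Ndufa9, which sits at the junction of the matrix and membrane arms, was at 109, 108 and 104 CPM in TAA and at 128, 138 and 134 after 5 weeks (log2 change 0.32, SE 0.10, edgeR adjusted p 0.128). Uqcrfs1, the Rieske protein, was at 176, 187 and 182 CPM and then 228, 234 and 221 (log2 change 0.33, SE 0.10, edgeR adjusted p 0.136). Sdhd, the other anchor of complex II, was at 201, 190 and 191 CPM and then 227, 263 and 227 (log2 change 0.30, SE 0.11, edgeR adjusted p 0.169). In each of these 3 genes the 5-week libraries lay above TAA.

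Complex II had the highest median at 5 weeks, 0.35, against 0.23 for complex I, 0.21 for complex III, 0.24 for complex IV and 0.20 for complex V. Sdha was at 464, 314 and 369 CPM after 5 weeks (log2 change 0.41, SE 0.15, edgeR adjusted p 0.186) and Sdhb at 201, 319 and 248 (log2 change 0.39, SE 0.17). These partners in one enzyme went opposite ways across the 5-week libraries, with library 23 highest for Sdha and lowest for Sdhb. Their transcripts differ in length, at 2859 bases for Sdha and 1073 for Sdhb. With the trend over length removed, as described below, their log2 changes were 0.42 and 0.38. The part of length in the contrast was not tested. Atp5a1 was at 1056, 913 and 973 CPM (log2 change 0.32, SE 0.11, edgeR adjusted p 0.167), again highest in library 23. Ndufs1 was at 153, 93.6 and 121 CPM (log2 change 0.45, SE 0.21), the second largest change among the subunits after that of Cox6b2 (log2 change 0.46, SE 0.29, at 1.8 to 3.4 CPM). In complex IV the lowest p belonged to Cox7c, at 147, 132 and 162 CPM in TAA and at 155, 223 and 179 after 5 weeks (log2 change 0.33, SE 0.15). The lowest changes were those of Ndufa4l2 (log2 change -0.12), Ndufv2 (0.016) and Ndufa8 (0.022). For other core or catalytic subunits the log2 changes were 0.20 in Uqcrc1, 0.20 in Atp5b and 0.23 in Ndufv1.

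**Figure D3:**
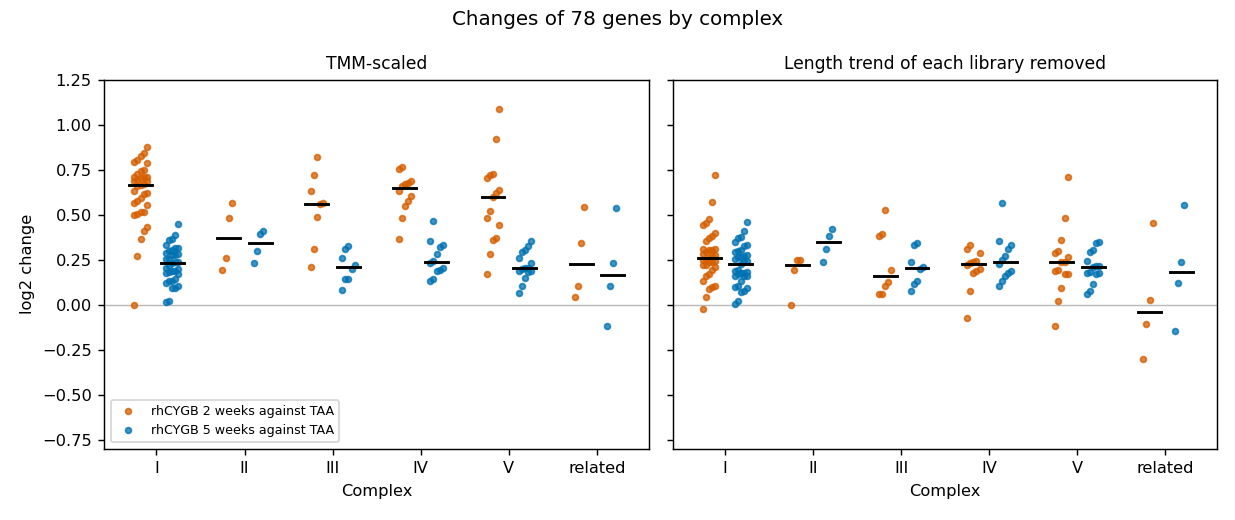
Log2 change of each gene (points) by complex after 2 weeks (orange) and 5 weeks (blue) of rhCYGB against TAA, with black bars at the medians, on the TMM scale (left) and after the length trend of each library was removed (right). On the left the 2-week medians of complexes I, III, IV and V lie between 0.56 and 0.67 and the 5-week medians of complexes I to V between 0.20 and 0.35. On the right the 2-week medians of complexes I to V lie between 0.16 and 0.26 and the 5-week medians again between 0.20 and 0.35.

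Between the treated groups, no member was called by edgeR at 5 weeks against 2 weeks, where 0.0204% of all tested genes were called and 0.00679% called lower. Without library 27 the count was 34, with 1889 genes called in all. At an unadjusted p under 0.05 there were 32 members, all lower at 5 weeks, against 10.5% of all tested genes lower at that p. DESeq2 called 3 members lower (2.24% of all genes called lower by that test), and limma on log2(FPKM + 1) called 0 members and 0.0339% of all genes. The median log2 change was -0.38, with 70 of 78 members below 0, against -0.01 for all genes. In 7 members (8.97%) every 5-week library lay below every 2-week library, against 10.2% of all tested genes, a share near the background. They were Ndufs7 (log2 change -0.48, SE 0.12, edgeR adjusted p 0.15), Ndufa9, Ndufb8, Sdhc (-0.25), Uqcrq (-0.64), Cox4i1 (-0.44) and Atp5g1 (-0.98). Atp5e and Ndufa3 had log2 changes of -0.77 and -0.70 with overlapping groups. The 8 members above 0 included Ndufs1 (0.45), Sdha (0.21), Atp5a1 (0.15), Sdhd, Uqcrc2, Uqcrfs1 and Cox6b2. Cox7a2l was at -0.11. The comparisons with TAA share their control libraries, and the difference between them is this test.

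Transcript length moved with these changes. Members' transcripts had a median length of 740 bases (292 to 2859), against 2746 over all tested genes. At 2 weeks against TAA, Spearman's rho between length and log2 change was -0.42 over 14731 genes and -0.54 over the 78 members. It was 0.05 and 0.09 at 5 weeks against TAA, and 0.47 and 0.47 at 5 weeks against 2 weeks. Genes are not independent replicates, and all share the same libraries. Among the 591 other genes under 750 bases and the 5333 from 1500 to 3000 bases, the difference in mean deviation between short and long was 0.29 in library 17, 0.25 in library 18 and 0.15 in library 27, and -0.29 in library 23 and -0.25 in library 13. The members' mean level, described after the length-corrected fit, was likewise highest in 17, 18 and 27 and lowest in 13 and 23. GC content moved with the change too, with a rho of 0.26 over all genes and 0.42 over members at 2 weeks. It was -0.19 and -0.26 at 5 weeks against TAA, and -0.43 and -0.49 at 5 weeks against 2 weeks.

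Medians of members were also set beside those of other genes of like length. At 2 weeks the median of 12 members under 500 bases was 0.71 against 0.42 for 192 other genes, and that of 28 members from 500 to 750 bases was 0.65 against 0.45. The medians were 0.63 against 0.35 from 750 to 1000 bases (13 members), 0.48 against 0.25 from 1000 to 1500 (11 members), and 0.40 against 0.05 from 1500 to 3000 (14 members). At 5 weeks the members' medians were 0.17 to 0.30 above those of the other genes in the same 5 ranges of length. At 5 weeks against 2 weeks the difference ran from -0.08 to 0.10.

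**Figure D4:**
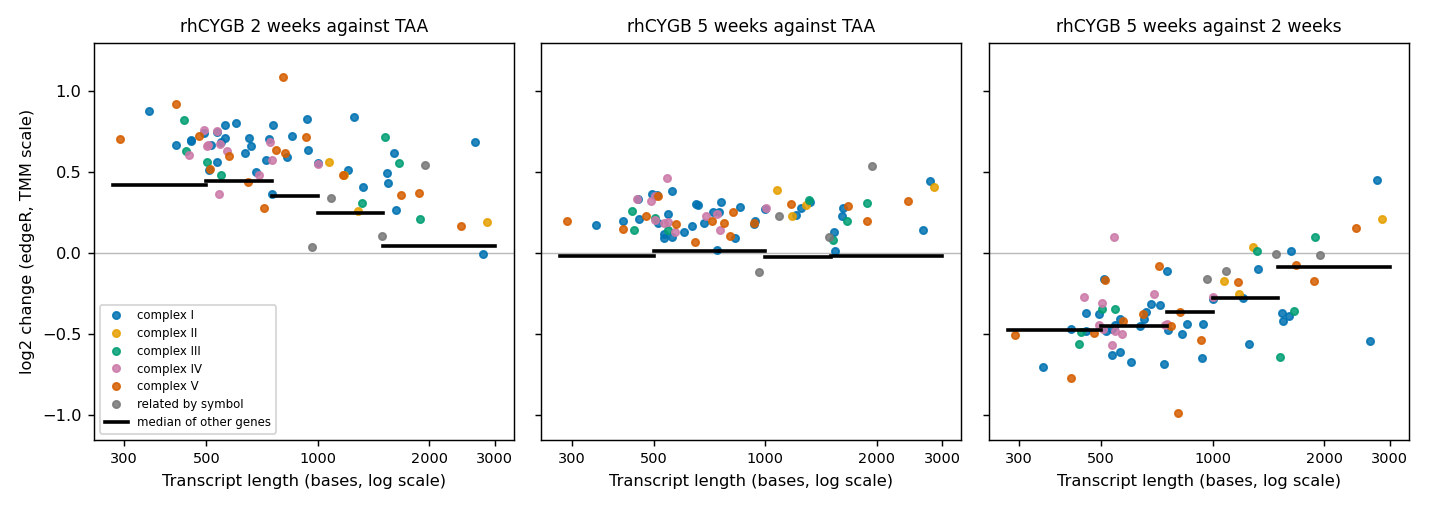
Log2 change of each of the 78 genes against the length of its transcripts (bases, log scale), coloured by complex, in the 3 comparisons; black bars are medians of the other tested genes in 5 ranges of length. Other short genes were higher at 2 weeks too (medians 0.42 and 0.45 under 750 bases, 0.05 from 1500 bases), and the members' medians exceed the bars by 0.17 to 0.36 against TAA and differ from them by -0.08 to 0.10 in the comparison of 5 with 2 weeks.

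When the trend over length was fitted in each library and removed, the medians of the members were nearly the same at both times. They were 0.24 at 2 weeks and 0.22 at 5 weeks against TAA, and -0.0097 at 5 weeks against 2 weeks. By complex the 2-week medians became 0.26, 0.22, 0.16, 0.22 and 0.24 for complexes I to V, and the 5-week medians 0.23, 0.35, 0.20, 0.24 and 0.21. In this fit 7 members were called higher at 2 weeks, where 2.61% of all tested genes were called higher: Ndufa6, Ndufa3 and Ndufv1 of complex I, Uqcr11 of complex III, Atp5g1 and Atp5e of complex V, and Atp5sl. At 5 weeks 5 were called higher, where 2.43% of all tested genes were called higher: Ndufa6, Ndufa1, Sdhb, Atp5l and Atp5sl. With library 23 also left out, these counts were 12 and 0, with 1034 and 80 genes called in all, against 643 and 583 with that library kept. None was called at 5 weeks against 2 weeks, where 0.0272% of all tested genes were called lower. With the GC trend removed as well, the counts called higher were 10 at 2 weeks (2.72% of all tested genes) and 7 at 5 weeks (3.6%), and none was called lower at 5 weeks against 2 weeks (0.00679%). Of the 5 members called at 2 weeks on the TMM scale, Ndufa6 was the single one also called with the length trend removed, and its length-corrected log2 change was 0.37 (SE 0.08, edgeR adjusted p 0.0378) at 2 weeks and 0.38 (SE 0.08, edgeR adjusted p 0.0382) at 5 weeks. Ndufs7, Ndufb8, Sdhc and Cox4i1 kept positive changes of 0.40, 0.17, 0.20 and 0.29 at 2 weeks without a call. Atp5g1 kept the largest change among those called, 0.71 (SE 0.16, edgeR adjusted p 0.0413), with 0.07 at 5 weeks.

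The mean deviation of the members in each library showed the same. It was -0.25, -0.41 and -0.11 in TAA libraries 12, 13 and 14, 0.45, 0.34 and 0.14 in 2-week libraries 17, 18 and 19, and -0.28, 0.25 and -0.11 in 5-week libraries 23, 27 and 28. The 5-week libraries overlapped both other groups. With the length trend removed the values were -0.14, -0.16 and -0.15 in TAA, 0.12, 0.06 and 0.06 after 2 weeks, and 0.09, 0.07 and 0.05 after 5 weeks. The rhCYGB libraries then all lay above the TAA libraries, and the spread within each group was smaller.

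**Figure D5:**
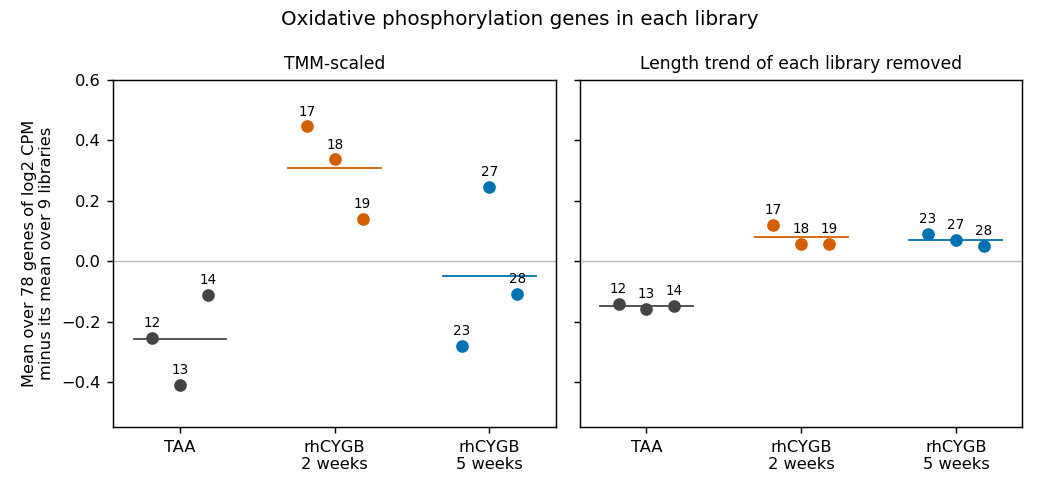
Mean over the 78 genes of log2 CPM minus its mean over the 9 libraries, for each library (points, with replicate numbers) and each group (lines, means of 3), before (left) and after (right) removal of the length trend of each library. Before removal the 5-week libraries run from -0.28 to 0.25; after it the 3 TAA libraries lie between -0.16 and -0.14 and the 6 rhCYGB libraries between 0.05 and 0.12.

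Counts of single transcripts were uneven in a few members. For Atp5f1, the b subunit of the peripheral stalk, TAA libraries 12 and 14 gave 100% of reads to the longer of 2 transcripts (1808 bases), and the other 7 libraries gave 99.75% to 99.94% to the shorter (1641 bases). The shares of the 4 Ndufs1 transcripts also shifted between libraries, with 21.3% to 70.5% on the transcript of 2665 bases. For Atp5sl, called at both times with the length trend removed, 26.9% to 73.1% of reads lay on the transcript of 2389 bases and the rest on that of 1464 bases. The transcripts of Cox6b2 and Ndufv2 shifted too, by up to 42.6 and 13.8 percentage points between libraries. The tests used the deposited counts per gene, and the part of these shifts in the gene values was not tested.

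Genes that build or regulate the respiratory chain were read from related lists. Among 5 subunits and carriers outside the symbol pattern the median log2 change was 0.45 at 2 weeks and 0.22 at 5 weeks, and none was called at either time. Of 18 tested assembly factors of complex IV, 2 were called higher at 2 weeks: Sco2, a copper chaperone (1.15, SE 0.25, edgeR adjusted p 0.0439), and Cox16, which helps to assemble the Cox2 subunit (0.71, SE 0.125, edgeR adjusted p 0.0255). Sco2 was at 14.7, 13.25 and 21.5 CPM in TAA, at 46.3, 35.9 and 27.8 after 2 weeks and at 14.95, 22.2 and 14.7 after 5 weeks. Its 2-week libraries lay above all others. The other lists had no call at either time on the TMM scale. Their medians at 2 and 5 weeks were 0.25 and 0.21 for 14 complex I assembly factors, 0.25 and 0.11 for 13 assembly factors of complexes II, III and V, and 0.32 and 0.08 for 28 mitochondrial ribosomal proteins. They were 0.21 and 0.28 for 17 TCA cycle enzymes, 0.19 and 0.11 for 10 genes of mitochondrial DNA maintenance, and 0.09 and 0.05 for 14 import and carrier proteins. Among 13 transcriptional regulators of respiration, PGC-1 alpha and NRF1 among them, the medians were -0.02 and 0.31. Ppara had the lowest p of that list at 5 weeks (0.95, SE 0.28, edgeR adjusted p 0.115). With the length trend removed, the 2-week medians of these lists were 0.13, 0.04, 0.13, 0.16, 0.0019, -0.06 and 0.03, in the same order. The 5-week medians were then 0.21, 0.10, 0.10, 0.28, 0.12, 0.05 and 0.31. In that fit Ogdh and Mrpl14 were called higher and Slc25a4 lower at 2 weeks, and Ppara higher at 5 weeks. Of all tested genes, 2.61% and 2.43% were called higher at these times.

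Markers of liver cell types moved beside these genes. Of 12 hepatocyte markers, none was called at either time on the TMM scale, with medians of 0.33 and 0.23. With the length trend removed these medians were 0.22 and 0.22, beside 0.24 and 0.22 for the members. Hnf4a was then called higher at 2 weeks, and no hepatocyte marker at 5 weeks. On the TMM scale the hepatocyte markers summed to 104700 to 119000 CPM in the TAA libraries. The sum was 115100 to 155200 CPM in the 2-week libraries and 114100 to 153500 CPM in the 5-week libraries. Of 12 stellate cell and myofibroblast markers, 3 were called lower at 2 weeks (Acta2, Col1a2 and Lum) and 2 at 5 weeks (Acta2 and Col1a2), with medians of -1.22 and -1.51. Summed, they reached 1396 to 2089 CPM in the TAA libraries, 535 to 941 CPM in the 2-week libraries and 398 to 861 CPM in the 5-week libraries, with no overlap with TAA. The part of this shift in the members' changes was not tested. At 2 weeks, Nkg7 and Ccl5 of 7 T and NK cell markers were called higher (summed level 3.97 to 4.79 CPM in TAA and 11.6 to 25.6 after 2 weeks), as were Clec4f of 9 macrophage markers and Alas2 of 4 tested erythroid markers. Gpnmb, another macrophage marker, was called lower. No cholangiocyte, endothelial, B cell or neutrophil marker was called at either time. Markers of striated muscle, a tissue rich in these subunits, were near 0. Of 9 such markers, 3 passed the filter on low counts and summed to 1.435 to 4.78 CPM over the 9 libraries. The others did not pass it, and Myh1 was at 0 in each library. Of 5 fat markers, 1 passed the filter, at no more than 0.341 CPM.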

How the data were processed

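Strand-marked mRNA libraries of 9 liver samples were sequenced from both ends, per the labels' protocols. Tools and build named in the submitters' processing notes are HISAT2 2.1.0, StringTie 1.3.4d, FastQC 0.11.7 and mm10. The deposited estimated count of each gene and transcript is a whole number. FPKM, scaled by length and depth, are the authors' own values. How the counts were made, and whether by strand, is not given in the sources used here, so near-identical copies and overlapping genes are uncertain.

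After filterByExpr in edgeR (at least 10 reads, total at least 15), genes were scaled by TMM and tested in edgeR 4.0.16 (R 4.3.3) with the quasi-likelihood F test, in 1 fit of 9 libraries and 3 groups (6 residual degrees of freedom, biological coefficient of variation 24.9%). P-values were adjusted by Benjamini-Hochberg over 14731 genes. SE is the log2 change divided by the square root of F. Transcript length is the mean of a gene's transcripts weighted by reads. The trend over log length (natural spline, 5 degrees of freedom) was fitted in each library over all tested genes and entered as offsets. GC content was known for 98.8% of tested genes. Alternatives used DESeq2 1.42.0 and limma 3.58.1 (log2(FPKM + 1) and log2(FPKM + 0.1)). The edgeR fits without and with the length trend removed, DESeq2, and limma on log2(FPKM + 1) were first checked on simulated data. Only the edgeR fits were also checked with a length trend in the simulated counts. The other alternatives were not checked in this way.

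The members, lists and tests were chosen with earlier results of these data known, so a shared direction of the members is not independent support. The rule named called members, the lowest p of each complex, and the 3 highest and 3 lowest changes of each comparison. It also named the extremes of FPKM in each complex, core or catalytic subunits, isoform pairs and members near the read threshold. Called genes (otherwise the lowest p) of related lists were named too, and of these not all are printed. The printed promoters and transcripts with uneven counts were picked after their values were seen. Mitochondrially encoded subunits were not analysed here. Not every member is reported by name here.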

Additional observations from a re-analysis of the deposited data

How the results depend on the processing

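At 2 weeks against TAA, 5 members were called, with 488 genes called in all. The members' count was 1 with upper quartile scaling (326 in all), 1 with library totals alone (1722) and 3 with no filter on low counts (388). Limma called 1 on log2(FPKM + 1) (1983 in all) and 1 on log2(FPKM + 0.1) (1639). With totals alone and on both FPKM scales, fewer members but more genes in all were called. The members' count was 49 with DESeq2 (1713 in all) and 10 with length and GC trends removed (666). Leaving out 1 library gave 0 to 38, and the count over all genes (488) moved too: 0 without 12, 13, 14, 17 or 18 (1 to 31 in all), 4 without 19 (368 in all), 26 without 23 (1095), 38 without 27 (888) and 1 without 28 (169). With the length trend removed and 23 left out, the members' count was 12 (1034 in all). That setting, and the one without 17, 18 and 23, were chosen after seeing the data. The median of 0.61 became 0.28 with totals alone, 0.28 with either FPKM scale, 0.24 with the length trend removed, 0.25 with length and GC trends removed, 0.40 without 17, 18 and 23 and 0.24 with the length trend removed and 23 left out (0.50 to 0.69 leaving out 1 library). With TMM over genes of the members' length range the members' median was 0.44 and that of all genes -0.20. In that setting 4 members were called (440 genes in all). With totals alone the all-gene median shifted by -0.33 at 2 weeks, -0.22 at 5 weeks and 0.11 between them, and the members' median stood 0.64, 0.21 and -0.37 from it.

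At 5 weeks against TAA 0 members were called, with 190 genes called in all. The members' count was 5 with DESeq2 (1188 in all) and 5 with the length trend removed (583). It was 7 with length and GC trends removed (878 in all), and 0 to 0 leaving out 1 library. The median of 0.23 was 0.0039 with totals alone, -0.0094 with either FPKM scale, and 0.045 to 0.31 leaving out 1 library, lowest without 27; without 13 it was 0.13. At 5 weeks against 2 weeks the count (0, with 3 genes in all) was 3 with DESeq2 (788 in all). Leaving out 1 library gave 0 to 34, the 34 without 27 (1889 genes in all). The median of -0.38 was -0.0097 with the length trend removed, 0.0040 with length and GC trends removed, -0.056 without 17, 18 and 23, -0.022 with the length trend removed and 23 left out, and -0.57 to -0.27 leaving out 1 library. For each of these, beyond fewer libraries and the scale itself, the cause was not tested.

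Of 49 log2 changes of named genes, 14 changed sign under some alternative, and none of these was called. At 2 weeks, Ndufs1 was 0.00013 with DESeq2 size factors, 0.00012 with DESeq2, 0.042 with the length trend removed and 0.10 with length and GC removed (-0.20 to 0.087 leaving out 1 library). Ndufa4l2 was -0.013 with upper quartile scaling, -0.29 with totals, -0.20 and -0.28 on the FPKM scales, -0.30 and -0.43 with length and with length and GC removed, and -0.13 with TMM over genes of the members' length range (-0.18 to 0.20 leaving out 1 library). Atp5s was -0.23 with totals, -0.18 and -0.23 on the FPKM scales, -0.10 with length removed and -0.064 with TMM over that range. Sdha was -0.13, -0.14 and -0.14, and Atp5a1 -0.16, -0.17 and -0.17, with totals and the FPKM scales. At 5 weeks, in that order, Uqcrc1 was -0.022, -0.031 and -0.031, Atp5b -0.021, -0.026 and -0.026, Ndufv2 -0.21, -0.21 and -0.21, and Ndufa8 -0.21, -0.22 and -0.23. Upper quartile scaling and a filter at a mean count of 100 gave -0.068 and -0.017 for Ndufv2, and -0.060 and -0.011 for Ndufa8. Ndufv2 was -0.10 with length and GC removed. Leaving out 1 library gave -0.15 to 0.13 for Ndufv2, -0.22 to 0.17 for Ndufa8 and -0.41 to 0.12 for Ndufa4l2. At 5 weeks against 2 weeks, length and GC removed gave 0.22 for Ndufs7, 0.16 for Cox4i1 and 0.13 for Cox7a2l, and length removed gave 0.044 for Sdhc and 0.21 for Cox7a2l, which was 0.061 with TMM over genes of the members' length range. No paired analysis was possible because the groups share no replicate number. With 3 libraries a group, changes near or under the SE could not be told from 0. Changes of several SE could also miss the threshold, as that of Atp5g1 did at 2 weeks (log2 change 1.09, SE 0.27, edgeR adjusted p 0.0571).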
